A study of Mus musculus with 23 samples.

Results

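The transcripts of 9 genes that mark pyramidal neurons of hippocampal fields CA2 and CA3 were followed across 23 mouse hippocampus libraries: Amigo2, Rgs14, Map3k15, Cacng5, Pcp4, Necab2, Cpne4, Bok and Grik4. They were taken by symbol from both deposited count tables, which hold 24985 symbols each, and all 9 were present and passed the filter on low counts in both. The mice were C57BL6/J carrying no intact copy of Acss2 (KO), a single intact copy (Het) or an unaltered locus (WT). Acss2 encodes acetyl-CoA synthetase 2, and exons 3 to 7 had been removed in fertilised single-cell embryos, so every tissue of a KO mouse lacks them from the start of life. No age and no sex is given in the labels. Dorsal hippocampus, in sections 1 mm thick, came from 4 KO fear, 5 KO home cage, 3 WT fear and 5 WT home cage libraries. Fear mice were killed 30 min after contextual conditioning with 1 shock, and home cage mice were taken directly from their cages. Whole hippocampus, dissected by hand from home cage mice, came from 2 KO, 2 Het and 2 WT libraries. Nothing in the labels says that replicates are separate animals, so p-values measure only the spread between these libraries, which may be technical.

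The hippocampal pyramidal layer is divided into fields. CA3 neurons receive mossy fibre input from the dentate gyrus and excite one another through recurrent collaterals, CA2 neurons form a small field next to CA3 that is known for its part in social memory and for synapses that resist potentiation, and CA1 neurons carry the output. Amigo2, Rgs14, Map3k15, Cacng5, Pcp4 and Necab2 are used as markers of CA2, and Cpne4, Bok and Grik4 are enriched in CA3 or in both fields. Several are not restricted to these fields: Pcp4 and Necab2 are also transcribed elsewhere in the forebrain. In bulk tissue, fewer cells of a type and less RNA per cell cannot be told apart.

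Total counts per library ran from 5362773 to 23412644 in dorsal tissue and from 18814460 to 27293661 in whole hippocampus. The labels give dorsal batches B1, B2 and B3, without saying which step a batch refers to. All 3 WT fear libraries, WT home cage 1 and 2 and KO fear 1 and 2 belong to B1, which is also the shallowest batch (5362773 to 9109104 counts). In B2 there are the remaining 3 WT home cage libraries (numbers 3, 4 and 5) with KO home cage 1, 2 and 3. B3 has the other KO libraries, home cage 4 and 5 together with fear 3 and 4. Acss2 itself followed the labels, with 5.18 to 6.04 CPM in KO fear and 3.87 to 5.85 CPM in KO home cage libraries, against 56.2 to 57.7 CPM in WT fear and 57.6 to 71.3 CPM in WT home cage libraries. Levels are CPM computed on library sizes scaled by TMM.

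Coordinates are those of GENCODE M21 on mm10, the build named in the submitters' processing notes. Amigo2 spans 97244125 to 97247287 on chromosome 15 (minus strand) and Cacng5 spans 107874605 to 107915055 on chromosome 11 (minus strand). Cpne4 lies at 104547286 to 105034544 on chromosome 9 (plus strand), the chromosome that also carries Grik4 at 42518135 to 42944493 (minus strand). Map3k15 is X-linked, at 159988433 to 160123351 (plus strand). Bok starts at 93685660 on chromosome 1, Necab2 at 119446719 on chromosome 8, Rgs14 at 55369732 on chromosome 13 and Pcp4 at 96467606 on chromosome 16, all on the plus strand. The library kit does not mark strand, and some overlapping genes lie on the same strand. Reads in exons shared with another gene therefore cannot be assigned with certainty. Such exons make up 1.83% of Amigo2 (58 bp shared with Pced1b) and 13.9% of Map3k15 (603 bp shared with Pdha1), with the other gene on the opposite strand. They make up 0.99% of Grik4 (59 bp shared with Gm24420) and 23.7% of Pcp4 (243 bp shared with Igsf5), with the other gene on the same strand.

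The 250 bases directly upstream of the RefSeq start (GRCm38.p6) are printed for Amigo2 and Cacng5, which were both lower after fear conditioning in WT mice and whose start coincides with the annotated start of the gene. Both strands were searched for 8 motifs. Capitals mark those found: the GC box with the letters GGGCGG, the box named CCAAT after its letters, and the AP-1 motif with the letters TGANTCA. The first line reads from chr15:97247288-97247537 and the second from chr11:107915056-107915305, both on the minus strand, written 5′ to 3′.
Amigo2: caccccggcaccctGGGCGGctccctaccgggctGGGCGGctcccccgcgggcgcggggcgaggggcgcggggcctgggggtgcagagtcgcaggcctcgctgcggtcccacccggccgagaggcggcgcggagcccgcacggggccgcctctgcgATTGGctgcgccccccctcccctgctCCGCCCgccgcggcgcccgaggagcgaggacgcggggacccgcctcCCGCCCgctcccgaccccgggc
Cacng5: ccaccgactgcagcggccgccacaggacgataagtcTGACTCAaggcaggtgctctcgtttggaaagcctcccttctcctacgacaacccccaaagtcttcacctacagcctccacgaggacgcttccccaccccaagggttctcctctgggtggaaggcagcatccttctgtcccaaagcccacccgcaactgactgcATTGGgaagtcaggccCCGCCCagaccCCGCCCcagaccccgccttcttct
The Amigo2 window holds 4 GC boxes and a CCAAT and is 84.0% G or C, against a median of 52.4% over all 32851 promoter windows of the same length. The Cacng5 window is 62.0% G or C and holds 2 GC boxes, a CCAAT and an AP-1 match at bases -214 to -208. No 2 of these matches overlap. Over all windows, 32.7% hold a GC box, 33.8% CCAAT and 6.75% AP-1, so that most of these letters are common. The cyclic AMP response element TGACGTCA is in 1.55% of all windows and was in neither of these. Nor was the E-box CACGTG (6.02% of windows), the TATA box TATAAA (12.4%), the EGR motif GCGTGGGCG (0.536%) or the glucocorticoid response element (0.0365%). Matches are letters only, and no binding data exist here. The RefSeq promoter table used here was matched for 7 of the 9 genes.

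Per kilobase of exon, the genes differed widely in level in dorsal WT home cage libraries (n = 5, mean ± SD). Pcp4, which encodes a small calmodulin-binding protein, stood highest at 198.5 ± 34.8 CPM per kb. Bok (97.4 ± 32.8), Rgs14 (50.4 ± 10.8), Cpne4 (46.7 ± 7.49) and Necab2 (44.9 ± 8.36 CPM per kb) followed, all below every Pcp4 library, and neighbours among these 4 overlapped. Amigo2 (15.3 ± 3.29) and Grik4 (10.9 ± 1.83 CPM per kb) overlapped each other, whereas Cacng5 (6.07 ± 1.11) and Map3k15 (2.05 ± 0.175 CPM per kb) were each below all libraries of the gene above them. Map3k15, the lowest of the 9, was counted from 34, 11 and 16 reads in WT fear 1, 2 and 3.

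In WT mice, fear libraries had lower values of all 9 genes than home cage libraries, by 0.307 to 1.65 on the log2 scale. The fall passed the test for Amigo2, Cpne4 and Cacng5, so that 3 of 9 were lower and none was higher. Of all 14808 genes tested, 0.756% were lower. The median log2 difference was -0.827 over the 9 genes and -0.0193 over all genes tested. In 7 of the 9, every WT fear library was below every WT home cage library, a pattern shown by 8.45% of all genes. Pcp4 and Bok were the exceptions. The 9 genes were chosen with earlier results of these data known, so setting them beside all genes is a description.

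Of the membrane proteins, Amigo2, an adhesion molecule with leucine-rich repeats, had 19.0, 7.89 and 11.1 CPM in WT fear libraries, against 39.2, 37.9, 54.8, 47.5 and 62.4 CPM in WT home cage libraries. The highest fear library thus stood below the lowest home cage library. The difference was -1.65 ± 0.25 (SE) on the log2 scale, or 3.14-fold lower, with an adjusted p of 0.00721, the 7th smallest p of all genes. Cacng5, an auxiliary subunit of AMPA-type glutamate receptors, had 7.91, 7.67 and 8.21 CPM in WT fear libraries, against 20.2, 17.4, 27.6, 25.2 and 25.9 CPM in WT home cage libraries. The fear libraries were close to one another and all below the home cage range. Its log2 difference was -1.18 ± 0.26 (adjusted p = 0.0382). Grik4, the kainate receptor subunit GluK4, had 44.6, 43.2 and 41.0 CPM in WT fear libraries, against 57.4, 53.1, 79.3, 73.0 and 62.2 CPM in WT home cage libraries. These ranges did not overlap either, but the log2 difference of -0.31 ± 0.14 did not pass (adjusted p = 0.209).

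The intracellular signalling proteins had lower values too, without passing the test. Rgs14, which restrains G protein signalling and limits plasticity in CA2, had 132.9, 111.0 and 117.5 CPM in WT fear libraries, against 170.6, 158.1, 242.9, 257.9 and 237.8 CPM in WT home cage libraries. The log2 difference was -0.53 ± 0.17 (adjusted p = 0.104). Map3k15, a kinase of the ASK group, had 6.40, 1.21 and 2.02 CPM in WT fear libraries, against 9.996, 8.28, 8.11, 9.23 and 8.88 CPM in WT home cage libraries. WT fear 1 was nearest to the home cage range, and the log2 difference was -1.62 ± 0.42 (adjusted p = 0.0576).

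Among the calcium-binding proteins, Cpne4, a copine that binds phospholipid in the presence of calcium, had 151.6, 67.9 and 94.2 CPM in WT fear libraries, against 200.9, 229.4, 300.1, 288.1 and 264.5 CPM in WT home cage libraries. All fear libraries were below all home cage libraries, and the fall of 2.03-fold passed (log2 -1.02 ± 0.20, adjusted p = 0.0306). Necab2, an EF-hand protein, had 49.9, 54.0 and 33.6 CPM in WT fear libraries, against 72.7, 78.9, 99.2, 109.2 and 111.0 CPM in WT home cage libraries. The ranges were apart but the log2 difference of -0.79 ± 0.21 did not pass (adjusted p = 0.0628). Pcp4 had 166.6, 79.7 and 100.5 CPM in WT fear libraries, against 200.7, 196.3, 156.5, 208.5 and 256.4 CPM in WT home cage libraries. WT fear 1 lay above WT home cage 3, so the groups overlapped (log2 -0.81 ± 0.26, adjusted p = 0.098). Bok, a pore-forming member of the BCL2 family, had 115.8, 30.0 and 58.6 CPM in WT fear libraries, against 105.8, 121.7, 217.1, 219.3 and 232.3 CPM in WT home cage libraries. The overlap was again with WT fear 1 (log2 -0.83 ± 0.35, adjusted p = 0.194).

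**Figure D1:**
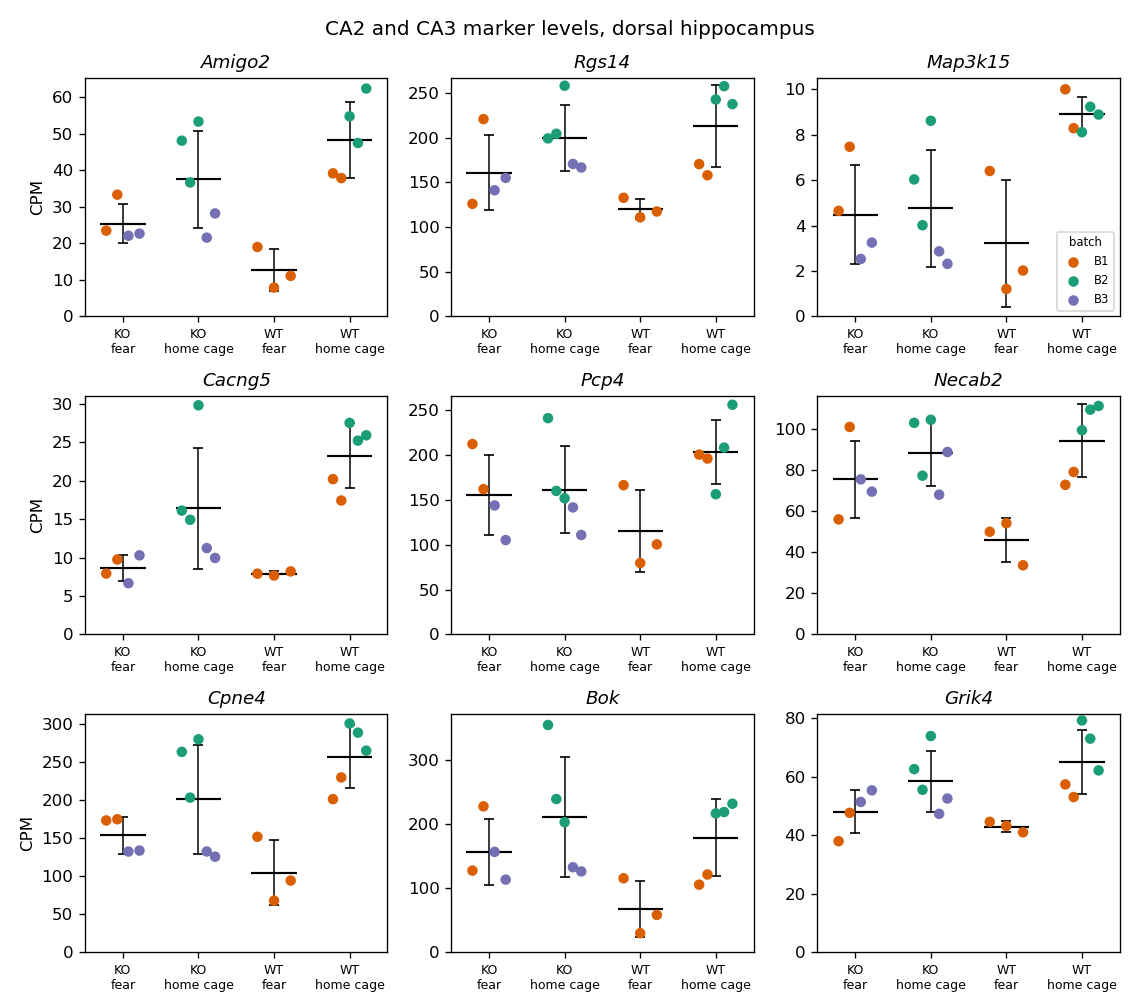
CPM of each marker gene per dorsal library, in KO fear, KO home cage, WT fear and WT home cage mice; points are libraries coloured by batch, lines the mean and bars the SD. Amigo2 lies between 7.89 and 19.0 CPM in WT fear libraries, below every WT home cage library, and KO home cage libraries of B3 lie low for most genes.

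WT home cage libraries of B2 all stood above those of B1 for each gene except Map3k15 and Pcp4, so B1 alone was also fitted. The share of all genes with that pattern was not counted. Within B1, the log2 difference between WT fear (n = 3) and WT home cage (n = 2) was -1.63 for Amigo2 (adjusted p = 0.0248), -1.23 for Cacng5 (0.0199) and -1.03 for Cpne4 (0.0833). Every gene was below 0 there, and in 8 of 9 the fear libraries were all below the home cage libraries, against 16.2% of all genes. Over all genes, 91 passed in that fit. Libraries were then left out, each in turn, of the fit of all 17 dorsal libraries. In it Amigo2 no longer passed without WT home cage 2 (adjusted p = 0.0504) or WT fear 3 (0.0513). Cpne4 no longer passed without WT home cage 2 (0.222) or KO home cage 4 (0.0508), nor without WT fear 2 (0.126) or its replicate 3 (0.129), and Cacng5 no longer passed without any of 8 libraries, with an adjusted p of up to 0.221. Over all genes, 241 were called with every library, and 6 without WT home cage 2, 13 without WT fear 2 and 10 without WT fear 3.

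Other genes of the same fields were followed beside them. Of 8 further CA2 markers, 2 were lower in WT fear libraries: the vasopressin receptor Avpr1b (log2 -2.97 ± 0.66, adjusted p = 0.0389) and the calcium sensor Scgn (-1.74 ± 0.35, adjusted p = 0.0306). Ntf3 (-0.84), Vit (-0.88) and Ptpn5 (-0.28) were below 0 without passing, and Nr3c2 (0.08), Adora1 (0.02) and Fgf2 (0.02) were near 0. Avpr1b was at 0 to 0.753 CPM in WT fear libraries. Of 5 further CA3 markers none passed, all 5 were below 0, and Iyd, an iodotyrosine deiodinase, had the largest difference (-1.62 ± 0.44, adjusted p = 0.0641). Of the protein relatives of the 9 genes (other AMIGO, TARP, copine, NECAB, R12 RGS, ASK, small IQ-motif, BCL2 and kainate receptor genes), none passed the test in this comparison. Pcp4l1, the closest relative of Pcp4, was at -0.51 (adjusted p = 0.0514), Cpne9 at -1.14 (adjusted p = 0.0622) and Cacng3 at 0.65 (adjusted p = 0.0642).

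Markers of other cells moved in the same libraries, and their part in the result was not tested. Of 8 CA1 markers, 6 rose in WT fear libraries, among them Mpped1 (log2 1.202), Gpr161 (1.66) and Ccn3 (2.39), and their summed level was 733.1 to 1397 CPM in WT fear libraries, against 429.9 to 624.7 CPM in WT home cage libraries. Of 8 oligodendrocyte markers, 7 were lower, with sums of 2235 to 2960 CPM in WT fear libraries against 3928 to 7928 CPM in WT home cage libraries. Of 6 ependyma markers, 4 were lower, with sums of 6.69 to 9.23 CPM in WT fear libraries, against 35.9 to 94.96 CPM in WT home cage libraries. Among 9 thalamus markers only Prkcd passed (-1.63), but 8 were below 0 and 1 above, with a median of -0.74. Their sums were 96.8 to 104.3 CPM in WT fear libraries, against 122 to 185.7 CPM in WT home cage libraries. Of 7 choroid plexus markers 1 passed as lower, and 6 were below 0 in all. Their sums were 48.3 to 145.7 CPM against 151.7 to 201.8 CPM. No endothelial marker passed, but all 5 were below 0, with sums of 48.2 to 51.2 CPM against 64 to 99.9 CPM. None of the dentate gyrus, general pyramidal or pan-neuronal genes passed, and sums of the pyramidal genes overlapped (6429 to 7976 CPM in WT fear libraries and 7128 to 8486 CPM in WT home cage libraries).

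**Figure D2:**
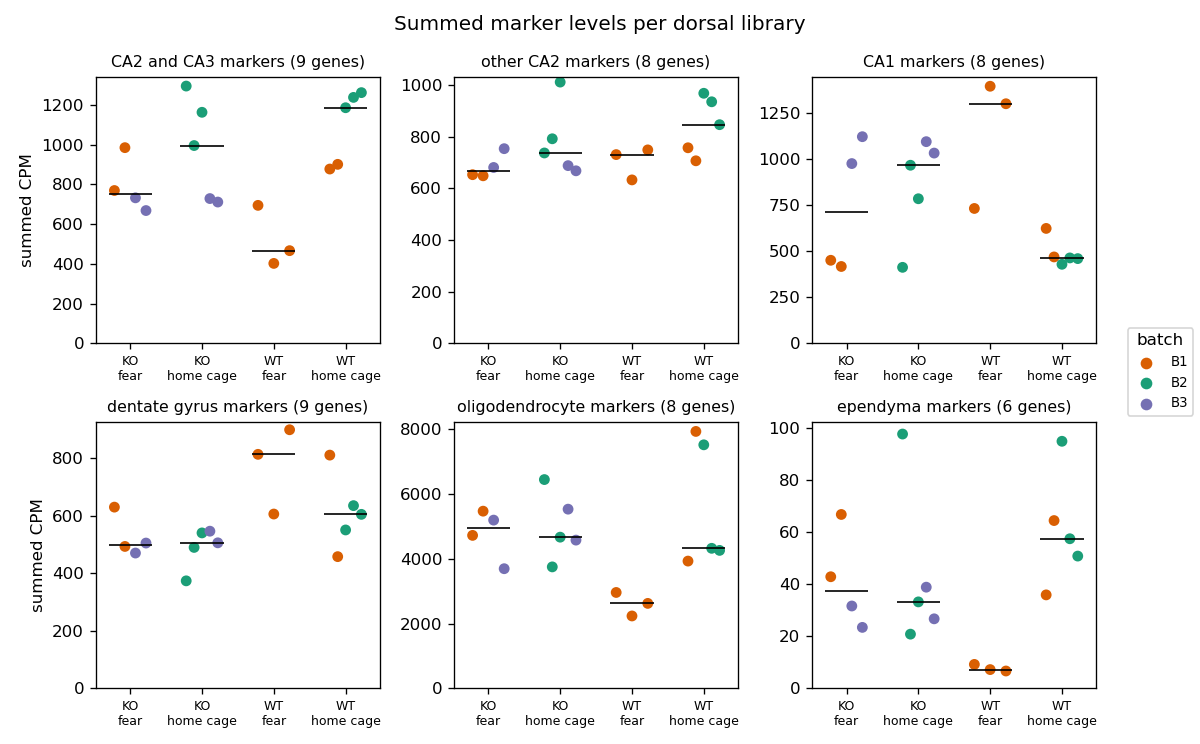
Summed CPM of 6 marker lists per dorsal library, with batch in colour and the group median as a line. In WT fear libraries the 9 CA2 and CA3 markers sum to 402.6 to 694.7 CPM, against 877.5 to 1262 CPM in WT home cage libraries, while CA1 markers are higher and oligodendrocyte and ependyma markers lower.

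In KO mice the same comparison, with batch in the fit, gave differences between -0.47 (Cacng5) and 0.18 (Bok). Their median was -0.015 over the 9 genes. These values rest on the batch term, since B3 alone holds both KO groups. In CPM not adjusted for batch, the KO fear mean was below the KO home cage mean for each of the 9. It was 25.4 against 37.6 CPM for Amigo2, 8.66 against 16.4 CPM for Cacng5 and 156 against 161.3 CPM for Pcp4. Without the batch term, Map3k15, Pcp4, Necab2 and Bok turned below 0 and none passed. By edgeR and by DESeq2, 0 of the 9 passed, and edgeR called 0% of all genes here. At an unadjusted p under 0.05 there was 1 of the 9, Cacng5, with an interval of -0.93 to -0.003 (95%), and 4.82% of all genes. Amigo2 had 23.5, 33.4, 22.1 and 22.7 CPM in KO fear libraries, against 48.1, 36.7, 53.4, 21.6 and 28.2 CPM in KO home cage libraries. The groups overlapped, with both home cage libraries of B3 within or near the fear range. The log2 difference was -0.16 ± 0.20, with an interval of -0.59 to 0.26, and within B3 alone, where 2 libraries stand on each side, it was -0.16.

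**Figure D3:**
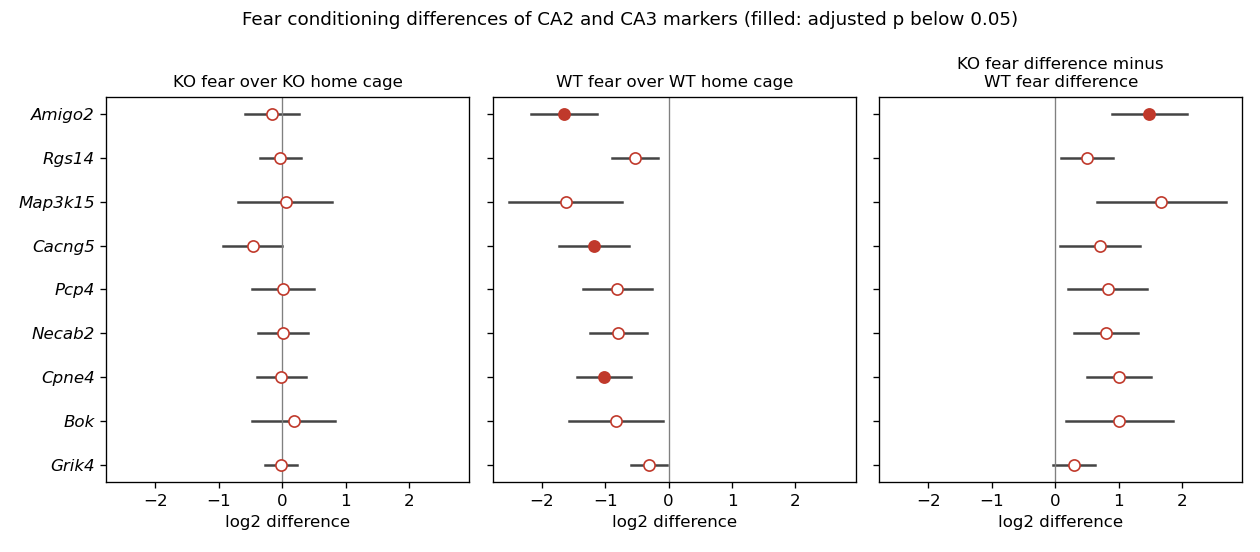
Log2 difference of each gene between fear and home cage libraries in KO mice, in WT mice, and their difference; points are estimates, bars 95% intervals, and filled points have an adjusted p below 0.05. Amigo2, Cacng5 and Cpne4 are filled in WT mice, Amigo2 alone in the difference between genotypes, and none in KO mice.

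The genotypes were compared in their fear response by an interaction term, in which a positive value means that the fear difference of KO mice lay above that of WT mice. All 9 estimates were above 0, with a median of 0.826 and 0.0338 over all genes. Amigo2 alone passed, at 1.49 ± 0.28 (adjusted p = 0.0406, 95% interval 0.90 to 2.07). Of all genes, 0.196% were called above 0. Cpne4 was at 1.01 ± 0.24 (adjusted p = 0.0549) and Map3k15 at 1.67 ± 0.48 (adjusted p = 0.0876). The Amigo2 call was lost in 13 of 17 fits that left out a library, with an adjusted p of up to 0.186 without WT fear 2. Like the KO difference, the interaction rests on the batch term, since B3 alone holds both KO groups. Without that term none of the 9 passed, nor did any other gene. This comparison, the WT fear comparison and that between the fear groups share the 3 WT fear libraries.

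Set directly against WT fear libraries, KO fear libraries had higher values of all 9 genes, by 0.062 to 1.35 on the log2 scale. The rise passed for Amigo2 (1.23 ± 0.25, adjusted p = 0.0155), Bok (1.35 ± 0.35, adjusted p = 0.0192), Cpne4 (0.77 ± 0.21, adjusted p = 0.0205) and Necab2 (0.71 ± 0.21, adjusted p = 0.0273). That made 4 of 9 higher, where 10.2% of all genes were higher. Bok had 127.8, 228.2, 157.1 and 113.7 CPM in KO fear libraries, against 115.8, 30.0 and 58.6 CPM in WT fear libraries, and the groups overlapped at WT fear 1. Necab2 had 55.9, 100.8, 75.3 and 69.4 CPM in KO fear libraries, all above the 33.6 to 54.0 CPM of WT fear libraries. Only Amigo2 and Necab2 had all KO fear libraries above all WT fear libraries, a pattern shown by 10.7% of all genes. All 4 calls were lost without WT fear 2, without WT fear 3 and without KO fear 2, with an adjusted p of up to 0.277. Over all genes, 3298 were called with every library and 2, 1 and 1 without each of these. Within B1 (2 KO fear and 3 WT fear libraries), the values were 1.2045 for Amigo2 (adjusted p = 0.017), 1.398 for Bok (0.0293), 0.77 for Necab2 (0.0431) and 0.73 for Cpne4 (0.0545), and Grik4 turned to -0.01. Over all genes, 2444 passed in that fit, in either direction.

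Of the 8 other CA2 markers, Avpr1b, Scgn, Ntf3 and Vit were higher in KO fear libraries, at 2.11, 1.84, 1.09 and 1.19 on the log2 scale. The other 4 were below 0 without passing, at -1.08 for Fgf2, -0.26 for Nr3c2, -0.06 for Ptpn5 and -0.04 for Adora1. Among the CA3 genes Iyd was higher (1.58). Of 8 CA1 markers 7 were lower in KO fear libraries, where 3298 of all 14808 genes were called in either direction. Their sums were 417.9 to 451.6 CPM in KO fear libraries of B1 and 977.0 to 1123 CPM in those of B3. WT fear libraries, all of B1, had 733.1 to 1397 CPM. Ependyma markers were higher in 6 of 6, with sums of 23.5 to 66.8 CPM in KO fear and 6.69 to 9.23 CPM in WT fear libraries. Oligodendrocyte markers were higher in 7 of 8, with sums of 3693 to 5468 CPM in KO fear and 2235 to 2960 CPM in WT fear libraries. Choroid plexus markers were higher in 6 of 7, although their sums overlapped, at 101.5 to 519.4 CPM in KO fear and 48.3 to 145.7 CPM in WT fear libraries. Their part in the values of the 9 genes was not tested.

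Between home cage mice of the 2 genotypes, none of the 9 genes passed by edgeR or DESeq2. Of all genes, edgeR called 0.00675%, the single gene being Acss2. At an unadjusted p under 0.05 there were 2 of the 9, Cacng5 (-0.45 ± 0.18) and Grik4 (-0.23 ± 0.11), and 11.3% of all genes. Amigo2 averaged 37.6 ± 13.3 CPM in KO home cage libraries and 48.4 ± 10.4 CPM in WT home cage libraries (SD, n = 5 each). Cacng5 averaged 16.4 ± 7.92 CPM in KO and 23.3 ± 4.26 CPM in WT home cage libraries. Of the 9 estimates, 8 were below 0, with Bok at 0.34 the exception, and intervals of 7 of the 9 spanned 0. Without KO home cage 3, Cacng5 passed (-0.75, adjusted p = 0.0274), when 585 of all genes did.

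KO home cage libraries themselves differed by batch. In 8 of 9 genes, both B3 libraries were below all 3 B2 libraries, a pattern shown by 14.1% of all genes. Cpne4 had 132.3 and 125.5 CPM in B3 and 262.9, 202.9 and 279.4 CPM in B2, and Map3k15 had 2.86 and 2.31 CPM in B3 and 6.03, 4.01 and 8.61 CPM in B2. Necab2 overlapped, at 67.9 and 88.6 CPM in B3 and 102.8, 77.1 and 104.3 CPM in B2. Summed CA1 markers were 1034 to 1096 CPM in the B3 libraries and 413.3 to 967.9 CPM in the B2 libraries, and KO fear libraries of B3 were like them, at 977.0 to 1123 CPM against 417.9 to 451.6 CPM in B1. On the mean log2 scale relative to the WT home cage mean, the 9 genes stood at -0.825 and -0.798 in KO fear 3 and 4, at -0.754 and -0.765 in KO home cage 4 and 5, and at -1.403 and -1.673 in WT fear 3 and 2. WT fear 1 was at -0.775, within the range of the KO libraries of B3. In B1, the batch of the WT fear libraries, KO fear 1 was at -0.732 and KO fear 2 at -0.295. WT home cage 1 and 2 of B1 were at -0.236 and -0.267. B3 holds no WT library, so this batch and the KO genotype cannot be told apart for its libraries.

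Over the 17 dorsal libraries, with batch means removed, the 9 genes varied together to different degrees. All 36 pairs had Pearson correlations above 0, from 0.081 (Pcp4 with Grik4) to 0.949 (Map3k15 with Cpne4), with a median of 0.652. The same values were not computed over pairs of all genes. Amigo2, Map3k15 and Cpne4 were the most alike, whereas Bok had values of 0.09 with Cacng5 and 0.10 with Grik4. When group means were also removed, 31 of 36 stayed above 0, with a median of 0.44, and Pcp4 was at -0.395 with Grik4. The points share libraries and their batch adjustment, and the values are descriptions. The genes closest to each member over the 14807 others were Cpne4 (0.941), Sostdc1 (0.931) and Ccdc3 (0.93) for Amigo2, and Ccdc3 (0.971), Prkcd (0.959) and Cpne9 (0.952) for Cpne4. Bok was closest to Hs3st4 (0.972), Cacng5 to Camk4 (0.889), Grik4 to Camk4 (0.911), Rgs14 to Ddx24 (0.878), Pcp4 to Mphosph6 (0.902) and Necab2 to Htr7 (0.881). Among the 3 closest genes of each, another member appeared only for Amigo2 (Cpne4) and for Map3k15 (Cpne4 and Amigo2). Sostdc1 is also on the choroid plexus list and Prkcd on the thalamus list.

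**Figure D4:**
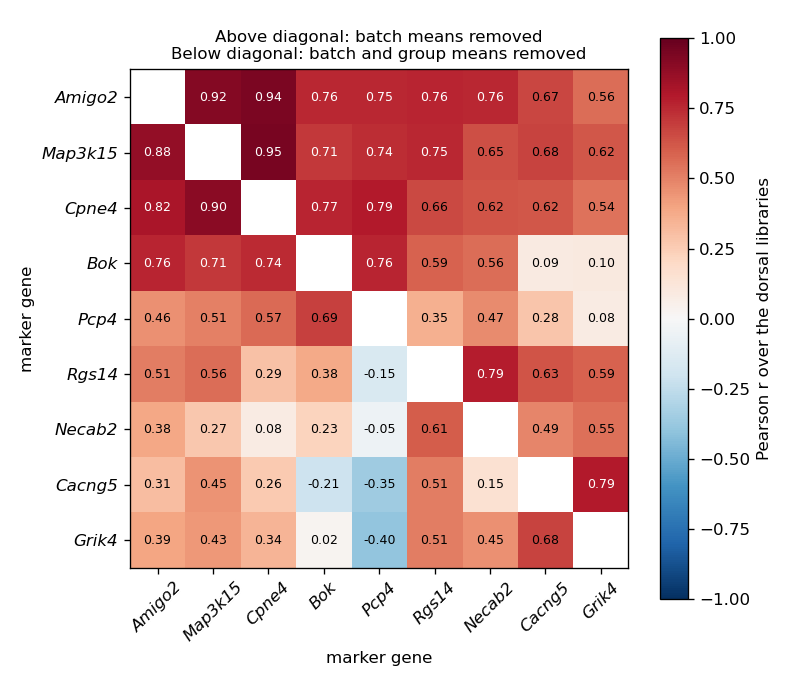
Pearson r between marker genes over 17 dorsal libraries, above the diagonal with batch means removed and below it with batch and group means removed. Amigo2, Map3k15 and Cpne4 form the reddest block, and Pcp4 with Grik4 is the lowest pair in both.

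In whole hippocampus, none of the 9 genes passed between KO and WT by edgeR or DESeq2, and none had an unadjusted p under 0.05, as 6.09% of all genes had. Of all 15453 genes tested, 0.0388% were called. Cpne4 had 112.1 and 120.1 CPM in KO libraries, against 123.8 and 119.8 CPM in WT libraries, and its interval ran from -0.35 to 0.21. Amigo2 had 30.4 and 33.0 CPM in KO libraries, against 31.9 and 34.4 CPM in WT libraries, which overlap (log2 -0.06 ± 0.13). The KO libraries were male in type and the Het and WT libraries female, with Xist at 0.137 to 0.145 CPM in KO, against 597.5 to 644.4 CPM in Het and 663.2 to 676.9 CPM in WT libraries. Genotype and sex therefore cannot be told apart here.

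Between Het and WT libraries none passed by edgeR or DESeq2, where edgeR called 0% of all genes. At an unadjusted p under 0.05 there were 3 of the 9, and 13.9% of all genes. Rgs14 had 92.5 and 60.7 CPM in Het libraries, against 107.7 and 101.1 CPM in WT libraries (log2 -0.45 ± 0.18), Amigo2 was at -0.32 ± 0.13 and Pcp4 at 0.30 ± 0.09. Het 2 was the lowest library of all 6 for Amigo2, Rgs14, Cacng5, Necab2, Cpne4, Bok and Grik4 and the highest for Pcp4, at 127.9 CPM. For Cacng5, Het 1 was close to it, at 11.1 against 10.6 CPM. The share of all genes with Het 2 as the lowest or highest library was not counted. For Map3k15, Het 2 lay within the range of the others. Its neocortex markers summed to 493.7 CPM, against 273.5 CPM in Het 1 and 232.3 to 241.9 CPM in WT libraries, and their part in these values was not tested. Between KO and Het libraries none passed by either tool, where edgeR called 0.0841% of all genes. At an unadjusted p under 0.05 there were 2 of the 9 (Cacng5 at 0.30 and Pcp4 at -0.25), and 13.2% of all genes. Leaving out Het 1, so that Het 2 is alone in its group and assumed to vary like the others, 6 of the 9 passed against WT and 5 against KO, as 1424 and 1211 of all genes then did.

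**Figure D5:**
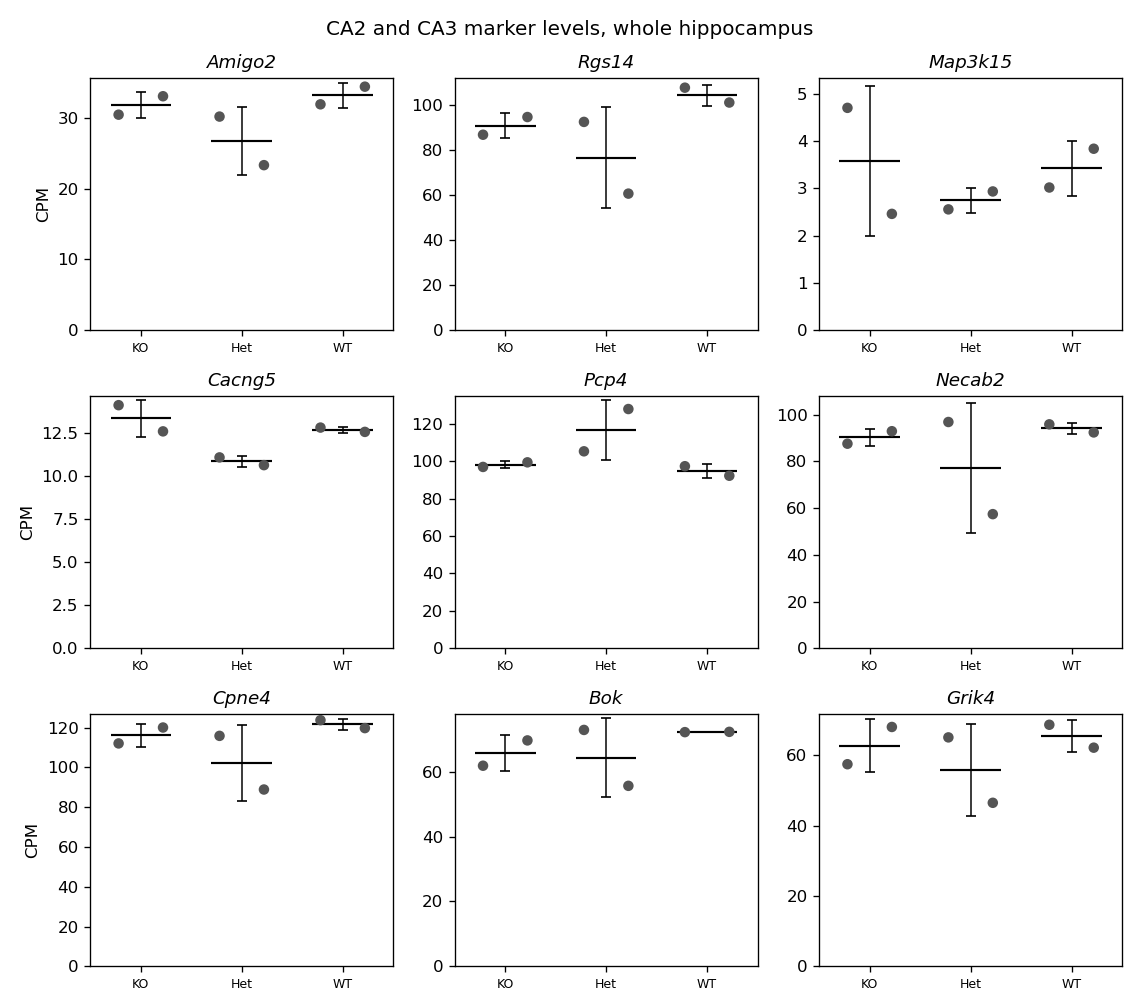
CPM of each marker gene in the KO, Het and WT libraries of whole hippocampus; points are libraries, lines the mean and bars the SD (n = 2 each). Het 2 is the lower Het library for Amigo2, Rgs14, Cacng5, Necab2, Cpne4, Bok and Grik4 and the higher for Pcp4 and Map3k15.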

How the data were processed

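Polyadenylated RNA of 17 dorsal and 6 whole hippocampus libraries was prepared from 300 ng of total RNA, per the labels' protocols. The authors deposited raw counts per gene symbol, with no normalization. Tools listed in the submitters' processing notes are HTSeq 0.9.1, SAMtools 1.1, limma, DESeq2 and STAR, with mm10 as build; their roles and the gene annotation are not given in the sources used here. Another 23 deposited columns of normalized values were not used, and 26 dorsal symbols had turned into dates, none of them a member.

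The main test was edgeR's quasi-likelihood test (version 4.0.16, R 4.3.3) after TMM scaling and filterByExpr, with minimum counts of 10 per library and 15 in total. Dorsal libraries were fitted together with group and batch terms (11 residual degrees of freedom), whole libraries with genotype alone (3). Tests are two-sided, Benjamini-Hochberg adjusted over all genes passing the filter, with a threshold of 0.05. The SE is approximate, the log2 difference over the square root of F. The fits were tested on simulated counts drawn without batch or tissue differences, which cannot show how the test behaves under such differences. Alternatives were DESeq2 1.42.0, RLE factors, no count filter, no batch term, a replicate block, only the compared groups, single batches, and each library left out. Libraries of a group differed by a chi-square of 6.1 to 62.1 per gene, so each counted as 1 replicate. Promoters are from RefSeq; 8 motifs were searched on both strands. The genes named are the 9 members, up to 3 called genes of smallest p per other list, and the genes most like each member. A few further list genes that did not pass were named after their values were seen. Members and lists were chosen with earlier results of these data known.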

Additional observations from a re-analysis of the deposited data

Results flagged for a closer look

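Amigo2 in KO fear 2 stood apart from the other KO fear libraries, at 33.4 CPM against 22.1, 22.7 and 23.5 CPM. It was the only such value among 27 groups of 4 or 5 libraries examined over the 9 genes, and about 1 in 20 groups would be flagged by chance.

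The fear difference of Amigo2 differed between genotypes in the interaction test, at 1.49 on the log2 scale (KO minus WT), with edgeR's adjusted p at 0.0406. Without KO fear 2 the value was 1.37 (adjusted p = 0.104), and over all fits that left out a library it ran from 1.22 to 1.83.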

How the results depend on the processing

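The 9 differences between WT fear and WT home cage libraries kept their direction under each alternative run, and so did the 9 interaction estimates. The number of genes passing did not. Between WT fear and WT home cage libraries, 3 passed in the fit reported, 6 with DESeq2, 5 without a count filter, 6 without the batch term and 0 to 6 when a library was left out. Between KO fear and WT fear libraries, 4 passed, 2 without the batch term and 0 to 6 with a library left out. In the interaction, 1 passed, 4 with DESeq2, 3 without a count filter, 0 without the batch term and 0 to 5 with a library left out. Between home cage groups 0 passed, and 0 to 1 with a library left out. In whole hippocampus, 0 to 6 passed between Het and WT and 0 to 5 between KO and Het with a library left out. Over all genes, the calls between WT fear and WT home cage libraries moved between 241 in the fit reported, 938 with DESeq2, 528 without a filter, 712 without the batch term, 91 within B1 and 19 with only these groups fitted. Between KO fear and WT fear libraries they were 3298, and 1544 without the batch term. In the interaction they moved between 71, 904 with DESeq2, 130 with RLE factors, 400 without a filter and 0 without the batch term. Between KO fear and KO home cage libraries they were 0, 6 with DESeq2, 1 without the batch term and 2 within B3. In whole hippocampus DESeq2 called 19, 147 and 137 genes between KO and WT, Het and WT, and KO and Het, against 6, 0 and 13. With a library left out, they ran from 6 to 829 between WT fear and WT home cage, from 1 to 4610 between KO fear and WT fear, from 0 to 1007 in the interaction and from 1 to 585 between home cage groups. In whole hippocampus they then ran from 5 to 7 between KO and WT, from 0 to 1424 between Het and WT and from 6 to 1211 between KO and Het. The cause of these shifts was not tested.

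With the replicate number as a block, 1 gene passed between WT fear and WT home cage libraries (Amigo2, -1.67, adjusted p = 0.0277), 0 between KO fear and WT fear libraries and 0 in the interaction, and over all genes 15, 1 and 0 passed. Same-numbered dorsal libraries correlated at -0.5 to 0.284 (3 of 22 pairs above 0.1) and whole libraries at -0.679 to 0.388 (2 of 6 pairs). Whole libraries had mirrored medians, at -0.393 for the same number and 0.393 for another number, so these pairs are not independent. The correlations gave no clear sign of a pairing by number but cannot exclude one. Of 17 dorsal libraries, 3 correlated best with a library of their own number in another group, and of 6 whole libraries, 0 did.

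Signs changed as follows, for differences that had not passed the test. Between KO fear and KO home cage libraries, Map3k15 was at -0.0238 with the block and -0.187 without the batch term. Without the batch term Pcp4 was at -0.0523, Necab2 at -0.227 and Bok at -0.436. With only these groups fitted, Pcp4 was at -0.0252, Necab2 at -0.118, Cpne4 at 0.0383 and Grik4 at 0.0902, and within B3 these 4 were at -0.0292, -0.123, 0.0335 and 0.0851. Between home cage groups Rgs14 was at 0.082 with the block, and between fear groups Grik4 was at -0.0102 within B1. With a library left out, the KO fear difference from KO home cage ran from -0.0568 to 0.0247 for Cpne4, -0.085 to 0.0495 for Grik4, -0.0662 to 0.184 for Map3k15, -0.161 to 0.151 for Necab2, -0.0974 to 0.139 for Pcp4 and -0.199 to 0.0592 for Rgs14. Between fear groups Grik4 ran from -0.0047 to 0.20, and between home cage groups Necab2 ran from -0.199 to 0.0183 and Rgs14 from -0.165 to 0.0144. In whole hippocampus, Het minus WT ran from -0.38 to 0.01 for Bok and -0.714 to 0.0387 for Necab2. KO minus Het ran from -0.15 to 0.24 for Bok, -0.0535 to 0.432 for Grik4, -0.16 to 0.77 for Map3k15, -0.10 to 0.65 for Necab2 and -0.0271 to 0.581 for Rgs14. KO minus WT ran from -0.0098 to 0.154 for Cacng5, -0.187 to 0.0581 for Grik4 and -0.48 to 0.45 for Map3k15. Of the members, Map3k15 had the fewest reads, and WT fear 1 was the shallowest library. A part of depth in these ranges was not tested.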
